A study of Homo sapiens with 15 samples.

Results

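The 56 genes described here encode the proteins that license origins of replication and build and follow the replication fork. They were listed by symbol from knowledge of the pathway, by a rule that uses no measured value but was written with earlier results of these data known, and all 56 were found once each among the 60664 genes of the deposited table. HCT116, a human colorectal carcinoma cell line, was left untreated (CTR) or was exposed for 72 h to 0.0154 mg/mL of hydroxytyrosol (HTyr), an olive phenol, or of an extract of oil production waste products (OPWPs) made in Apulia (AE), in Tuscany (TE) or in Sicily (SE). Each of the 5 groups held 3 libraries of poly(A) RNA, labelled as biological replicates 1 to 3 of wild-type cells of this single line, and p-values measure the spread between these libraries. The untreated cells carry no dose or time in the labels. The authors deposited TPM (transcript abundances scaled to a fixed library total), which are corrected for transcript length and add up alike in each library, so that a TPM is a share of the library and the depth of each library is unknown.

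Replication of DNA is split into licensing and firing. Before S phase the origin recognition complex, CDC6 and CDT1 load pairs of MCM2-7 rings onto DNA, while geminin, the product of GMNN, binds CDT1 and blocks reloading. In S phase the kinase CDC7-DBF4 and a set of firing factors turn the rings into active helicases with CDC45 and GINS, behind which primase, the polymerases, the PCNA clamp and histone chaperones work. Many of these genes are known targets of E2F factors, whose transcripts peak around the start of S phase, and proliferating carcinoma cells such as HCT116 express them throughout. In RNA from a mixed culture, more cells in S phase and more transcript per cell cannot be told apart.

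All 15 libraries expressed epithelial genes, with 308 to 346 TPM in untreated and 269.8 to 345 TPM in treated libraries for EPCAM and 1531 to 1611 TPM in untreated and 905 to 1168 TPM in treated libraries for KRT8, a keratin. Rank correlations across genes ran from 0.972 to 0.982 within groups and from 0.93 to 0.981 between them. Ribosomal protein genes held 28.1 ± 1.20% of TPM in untreated cells (SD, n = 3) and 21.4 ± 1.38% with SE, and over all 4 treatments the share was 4.39 percentage points lower (exact two-sided permutation p = 0.0022 for 3 against 12 libraries, the smallest possible), a shift whose part in the results below was not tested. The bracketed codes in the sample titles give the letter S to Tuscany and T to Sicily, whereas the sample descriptions and the study's methods call the Tuscany extract TE and the Sicily extract SE, which was followed here with the place names of the titles. Columns named TE and SE in a gene table published with the study list the same TPM, for the genes it holds here, as the columns used for TE and SE. If the title codes were right all the same, TE and SE would change places in everything below.

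Most transcripts of the replication machinery rose with each treatment, and the rise was largest with SE. Their summed level was 1237, 1283 and 1271 in untreated, 2289, 2325 and 2508 in AE, 2125, 2135 and 2104 in TE, 3460, 3589 and 3636 in SE and 2066, 2116 and 2247 in HTyr libraries, in TPM. The 3 untreated libraries were the lowest and the 3 SE libraries the highest, without overlap, while AE, TE and HTyr lay close together between them. Gene by gene, 38 of the 56 were called higher with HTyr, 47 with AE, 40 with TE and 53 with SE. By limma none was called lower, and at an unadjusted p under 0.05 the lower members numbered 2 with HTyr, 1 with AE, 1 with TE and 0 with SE. A gene was called at a Benjamini-Hochberg adjusted p under 0.05 (limma, adjusted over 14899 genes) and a fold change over 1.5, that is 0.585 on the log2 scale. Over all genes tested, 7.8% were called higher with HTyr, 10.7% with AE, 7.46% with TE and 17.0% with SE. The median log2 fold change of the 56 was 0.84 with HTyr, 0.99 with AE, 0.81 with TE and 1.57 with SE, beside -0.04, 0.09, 0.05 and 0.09 over all genes tested. In the mean of the 4 treatments, 46 of 56 were called higher against 10.4% of all genes. All 12 treated libraries lay above all 3 untreated ones for 47 members, as for 15.3% of all genes tested. These comparisons share the same 3 untreated libraries. Among all genes called with AE 64.9% were higher, and 50.8% after median-ratio scaling between libraries, and with SE 60.7% and 49.3%, while the members called higher numbered 45 and 52 after that scaling.

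**Figure D1:**
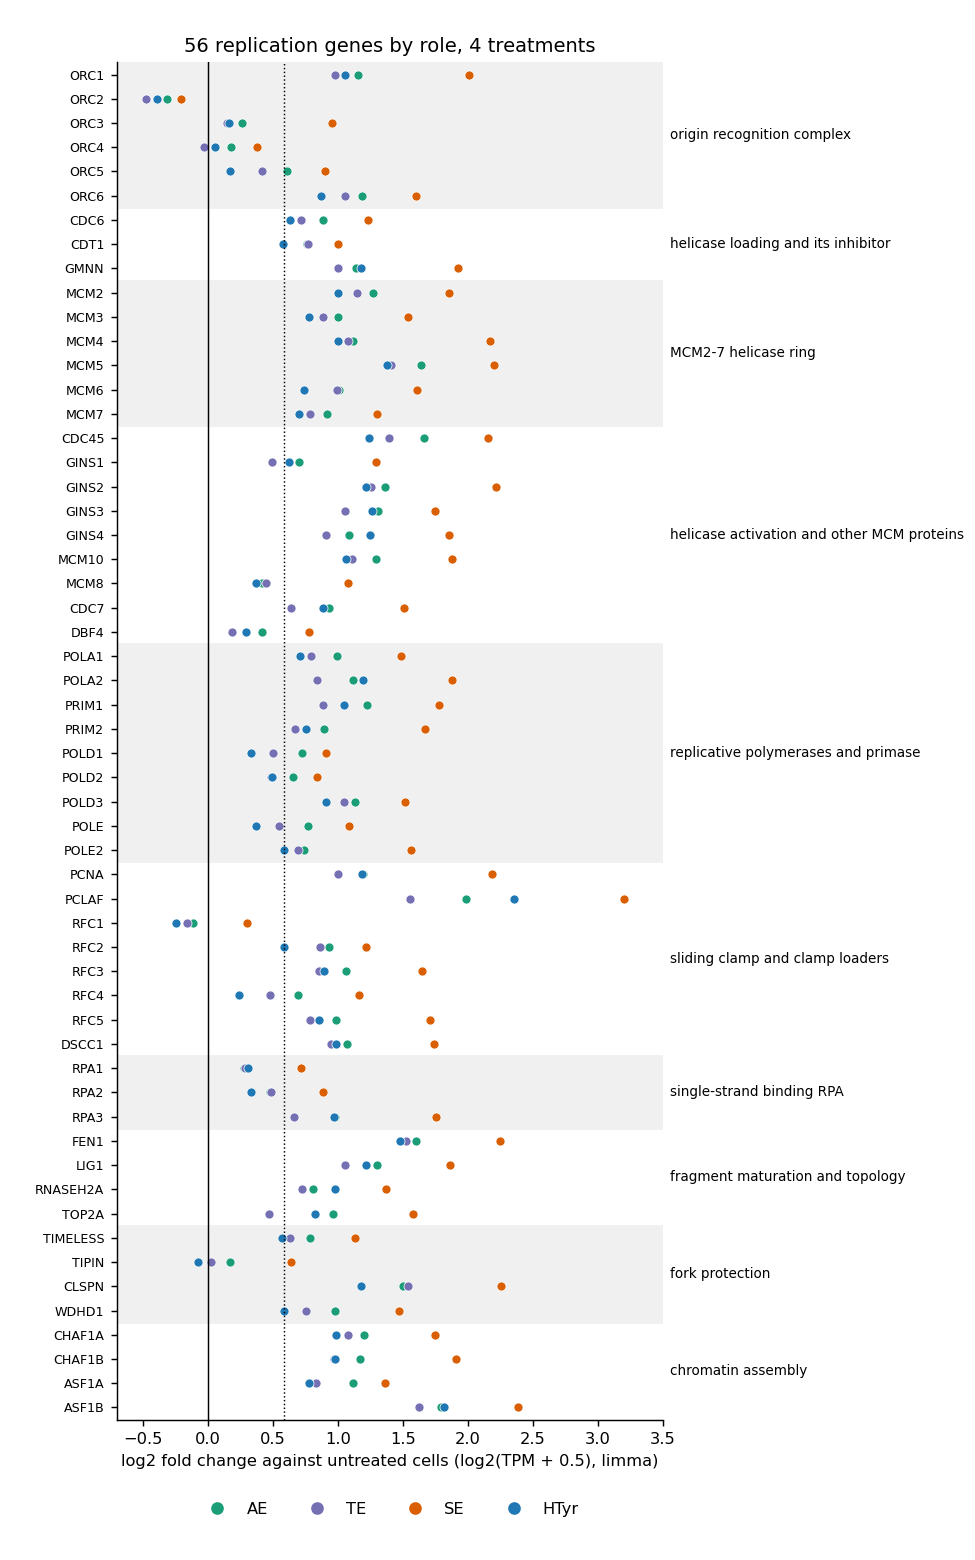
Each row is 1 of the 56 genes, grouped by role, and each point its log2 fold change against untreated cells with AE, TE, SE or HTyr, with the fold threshold of 0.585 as a dotted line. SE lies to the right of the other treatments for every gene, and ORC2, ORC4 and RFC1 stay left of the threshold with every treatment.

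With SE the members without a call were ORC2, ORC4 and RFC1. In the mean of the 4 treatments they were ORC2, ORC3, ORC4, ORC5, MCM8, DBF4, RFC1, RPA1, RPA2 and TIPIN, with log2 fold changes from -0.35 for ORC2 to 0.57 for MCM8. The largest rises in that mean were those of PCLAF (2.27), ASF1B (1.90), FEN1 (1.71), MCM5 (1.66), CLSPN (1.62), CDC45 (1.61) and GINS2 (1.51).

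Promoters of 49 members were held in the RefSeq promoter table (GRCh38.p14), and the 250 bases before each start were searched on both strands for words linked to cell cycle genes, a gene counting if any of its windows held the word. The E2F words TTTCCCGC, TTTCGCGC, TTTGCCGC and TTTGGCGC were found for 16 of 49 members (32.7%), against 3.4% of 27305 genes. CCAAT was found for 61.2% of members and 37.0% of genes, and the GC box GGGCGG, which can share bases with an E2F word on either strand, for 77.6% and 46.2%. The CHR words TTTGAA and TTCGAA were found for 6.12% of members and 17.2% of genes. Of the 40 members with a window that were called in the mean of the 4 treatments 14 held an E2F word, and of the 9 not called 2 did, ORC3 and TIPIN. Among the largest rises named above, PCLAF and GINS2 held an E2F word and ASF1B, FEN1, CLSPN and CDC45 did not. MCM5 had no window. Printed here are the windows of MCM6, which has 4 words in overlapping pairs, of PCNA and PCLAF, 2 strongly changed genes of the clamp, and of RFC1, which has no E2F word, chosen after their values were seen, with the E2F words, read on either strand, in capitals.
MCM6, chr2:135876444-135876693, minus strand: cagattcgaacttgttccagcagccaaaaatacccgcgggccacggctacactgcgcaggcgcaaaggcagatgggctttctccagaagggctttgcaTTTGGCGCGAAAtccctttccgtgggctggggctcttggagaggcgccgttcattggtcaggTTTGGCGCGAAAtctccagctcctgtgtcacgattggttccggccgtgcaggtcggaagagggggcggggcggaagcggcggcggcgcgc
PCNA, chr20:5126623-5126872, minus strand: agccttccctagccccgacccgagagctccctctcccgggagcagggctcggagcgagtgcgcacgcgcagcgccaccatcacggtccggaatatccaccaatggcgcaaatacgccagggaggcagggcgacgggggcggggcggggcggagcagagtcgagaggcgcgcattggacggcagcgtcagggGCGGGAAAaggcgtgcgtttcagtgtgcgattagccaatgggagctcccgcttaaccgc
PCLAF, chr15:64381442-64381691, minus strand: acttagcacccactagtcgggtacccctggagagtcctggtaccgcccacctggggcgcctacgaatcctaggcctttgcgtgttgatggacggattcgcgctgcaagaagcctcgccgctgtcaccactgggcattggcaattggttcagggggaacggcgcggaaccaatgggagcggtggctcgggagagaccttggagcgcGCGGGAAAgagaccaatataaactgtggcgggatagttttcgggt
RFC1, chr4:39366363-39366612, minus strand: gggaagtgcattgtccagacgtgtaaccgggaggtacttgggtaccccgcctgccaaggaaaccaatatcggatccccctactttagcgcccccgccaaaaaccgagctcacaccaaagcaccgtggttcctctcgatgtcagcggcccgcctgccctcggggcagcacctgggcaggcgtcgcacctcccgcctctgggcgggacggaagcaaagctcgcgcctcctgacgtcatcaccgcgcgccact
PCLAF has more than 1 annotated start, and the window shown belongs to an internal one. In the 250 bases of MCM6 the words begin 152, 148, 90 and 86 bases before the start, in that of PCNA 59 and in that of PCLAF 45 bases before it. A match is a stretch of letters and not a measured binding site.

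Within the origin recognition complex, the 6-subunit ATPase that marks origins, 2 of 6 subunits were called higher in the mean of the 4 treatments, with a median log2 fold change of 0.45, and ORC3 and ORC5 joined them with SE. ORC1 (ENSG00000085840, chr1:52372829-52404423, GRCh38), the subunit whose level is known to follow the cell cycle, measured 4.84, 4.75 and 4.51 TPM in untreated, 10.5, 11.7 and 11.1 in AE, 9.81, 10.1 and 9.30 in TE, 20.4, 19.8 and 21.1 in SE and 10.0, 10.4 and 10.5 in HTyr libraries. The 3 levels, untreated, AE with TE and HTyr, and SE, did not overlap, and ORC1 rose by 1.30 ± 0.05 (standard error from limma, adjusted p = 1.02e-09) on the log2 scale over the 4 treatments. ORC6, a small subunit needed for MCM loading, rose with every treatment, by log2 fold changes of 1.18 (AE), 1.06 (TE), 1.60 (SE) and 0.87 (HTyr).

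By contrast, ORC2 (ENSG00000115942, chr2:200908977-200963680), a core subunit, measured 31.6, 29.2 and 28.8 TPM in untreated, 27.97, 24.6 and 19.6 in AE, 19.4, 23.6 and 21.2 in TE, 24.01, 27.4 and 25.9 in SE and 25.4, 19.6 and 23.2 in HTyr libraries. Its 3 untreated libraries were above all 12 treated ones, and the difference of -0.35 ± 0.10 (standard error from limma, adjusted p = 0.00874) on the log2 scale was smaller than the fold threshold. ORC4, another core subunit, measured 28.8, 31.7 and 29.3 TPM in untreated, 28.7, 34.2 and 39.7 in AE, 29.4, 30.3 and 28.1 in TE, 37.3, 38.97 and 40.8 in SE and 33.1, 27.9 and 32.6 in HTyr libraries, with only the SE libraries wholly above the untreated ones and a log2 fold change of 0.38 there. For ORC3 the libraries read 17.5, 18.4 and 19.4 TPM in untreated, 22.1, 23.6 and 20.9 in AE, 21.9, 20.5 and 19.1 in TE, 36.6, 37.4 and 34.7 in SE and 21.5, 17.3 and 23.8 in HTyr libraries, with AE and SE libraries above the untreated ones and a called log2 fold change only with SE, of 0.96. ORC5 measured 13.4, 18.99 and 17.5 TPM in untreated, 26.4, 27.4 and 22.4 in AE, 23.3, 20.02 and 23.1 in TE, 27.2, 34.2 and 32.3 in SE and 17.4, 18.7 and 19.9 in HTyr libraries and was called with AE (0.60) and SE (0.90), and in the mean of the 4 treatments only without untreated replicate 2 (0.62).

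As shares of the summed TPM of the 6 ORC transcripts, ORC2 went from 27.1 ± 2.15% (SD, n = 3) in untreated cells to 13.8 ± 0.391% with SE, while ORC1 went from 4.25 ± 0.239% to 10.9 ± 0.605% and ORC6 from 9.94 ± 0.719% to 18.4 ± 0.365%. For each of these 3 subunits every treated library lay on the same side of all untreated ones. A share does not depend on the scaling between libraries.

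**Figure D2:**
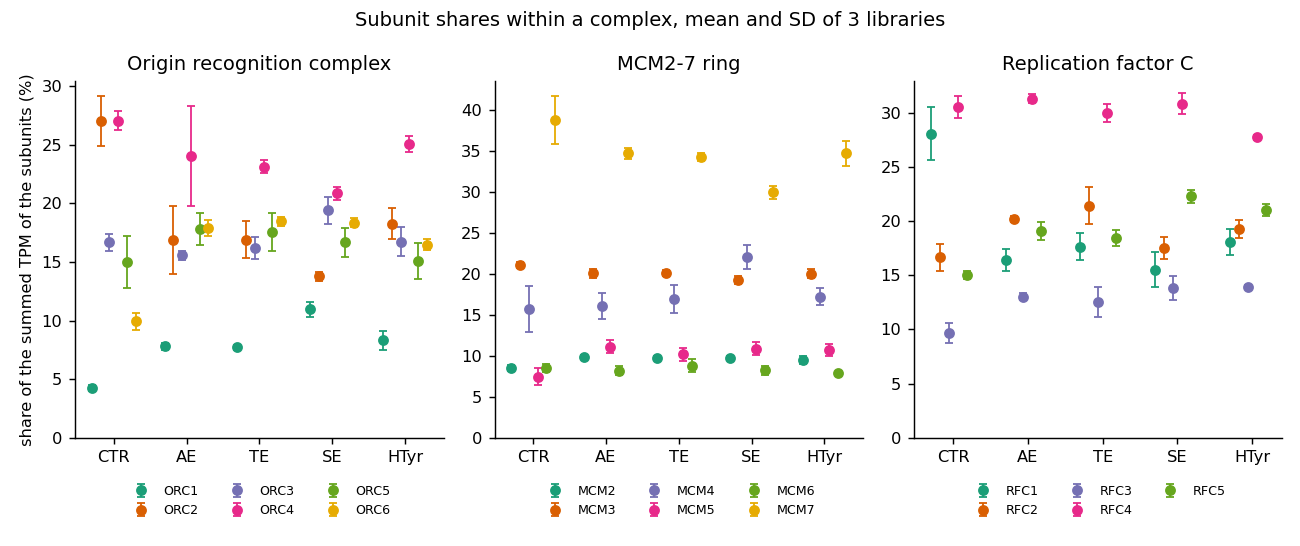
Points are the mean share of each subunit's TPM in the summed TPM of its complex, in percent, with SD bars over 3 libraries, for untreated cells and the 4 treatments. The shares of ORC2, RFC1 and MCM7 are highest in untreated cells, those of ORC1, ORC6 and MCM5 lowest.

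The loading factors CDC6 and CDT1 and geminin, the inhibitor of CDT1, were all called in the mean of the 4 treatments. CDC6, the ATPase that joins ORC to load the rings, rose by log2 fold changes of 0.88 (AE), 0.72 (TE), 1.23 (SE) and 0.63 (HTyr). CDT1, the escort of MCM2-7, measured 16.1, 13.1 and 19.6 TPM in untreated, 30.98, 24.5 and 27.8 in AE, 27.6, 27.9 and 27.6 in TE, 34.05, 30.7 and 33 in SE and 18.9, 31.3 and 23.9 in HTyr libraries. One HTyr library lay within the untreated range, and the HTyr comparison (0.58) missed the fold threshold, while the other 3 treatments were called. GMNN measured 19.5, 16.4 and 14.8 TPM in untreated, 35.8, 36.1 and 41.1 in AE, 35.5, 34.7 and 32.3 in TE, 62.9, 67.8 and 64.7 in SE and 38.1, 37.8 and 40.2 in HTyr libraries, with untreated, SE and other treated libraries in 3 separate ranges. The ratio of GMNN to CDT1 was 1.21, 1.25 and 0.755 in untreated, 1.16, 1.48 and 1.48 in AE, 1.29, 1.25 and 1.17 in TE, 1.85, 2.21 and 1.96 in SE and 2.01, 1.21 and 1.68 in HTyr libraries. Values with AE, TE and HTyr overlapped the untreated range, and the SE ratios were above all untreated ones but not above all HTyr ones.

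All 6 subunits of the MCM2-7 ring, the core of the replicative helicase, rose with every treatment, with a median log2 fold change of 1.20 in the mean of the 4 treatments. Summed over the ring, levels were 254, 283 and 268 in untreated, 546, 556 and 596 in AE, 518, 538 and 514 in TE, 872, 843 and 858 in SE and 464, 482 and 517 in HTyr libraries, in TPM, with no overlap between untreated cells, SE and the rest. MCM5 (ENSG00000100297, chr22:35400134-35425431) rose most and measured 17.5, 24.4 and 18.1 TPM in untreated, 55.6, 63.8 and 69.3 in AE, 53.1, 50.5 and 56.1 in TE, 96.4, 96.9 and 85.4 in SE and 53.4, 50.2 and 52.9 in HTyr libraries. Every treated library was above the untreated ones. Its log2 fold change in the mean of the 4 treatments was 1.66 ± 0.09 (standard error from limma, adjusted p = 7.09e-09). MCM7, the subunit with the highest TPM in each group, rose least, and measured 105, 100.3 and 106 TPM in untreated, 186, 194 and 209.6 in AE, 180.2, 182 and 175 in TE, 254, 254 and 263 in SE and 154, 175 and 179 in HTyr libraries. Its log2 fold change was 0.93 ± 0.05 (standard error from limma, adjusted p = 5.25e-09).

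MCM4 measured 34.7, 53.4 and 38.9 TPM in untreated, 96.7, 81 and 95.6 in AE, 84.8, 101 and 80.1 in TE, 203, 172 and 191 in SE and 83.4, 77.1 and 91.4 in HTyr libraries. Its SE libraries stood above every other treated library by more than the spread within any group. MCM2, MCM3 and MCM6 rose by 1.32, 1.05 and 1.09 in the mean of the 4 treatments. The share of MCM7 in the ring's summed TPM went from 38.8 ± 2.97% (SD, n = 3) in untreated cells to 29.9 ± 0.758% with SE, without overlap. The highest HTyr share, 36.3%, lay above the lowest untreated one, 35.5%. The share of MCM4 went from 15.7 ± 2.81% in untreated cells to 22.02 ± 1.47% with SE.

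Of 9 genes of helicase activation, MCM8 included, 7 were called in the mean of the 4 treatments, with a median of 1.27. CDC45 measured 5.84, 8.97 and 8.35 TPM in untreated, 21.8, 25.1 and 29.1 in AE, 20.8, 20.9 and 20.5 in TE, 33.9, 37.05 and 35.8 in SE and 17.7, 18.6 and 19.7 in HTyr libraries, with every treated library above the highest untreated one. GINS2, of the 4-subunit GINS complex, measured 5.89, 5.07 and 5.83 TPM in untreated, 14.3, 15.8 and 15.5 in AE, 14.5, 14.3 and 13.3 in TE, 27.04, 28.96 and 27.5 in SE and 13.4, 13.1 and 14.3 in HTyr libraries and rose by 1.51 in the mean of the 4 treatments. GSE1, on the opposite strand over part of GINS2, was at 21.7 to 39.3 TPM, and the strand setting of the quantification is not stated. GINS3 and GINS4 were called with every treatment, and GINS1 with all but TE (0.49). MCM10, which helps activate the helicase, rose by 1.29 (AE), 1.10 (TE), 1.88 (SE) and 1.06 (HTyr) on the log2 scale.

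Of the kinase that triggers firing, CDC7 was called in the mean of the 4 treatments and DBF4 (0.42) was not. The difference between them was not tested. CDC7, the catalytic subunit, rose by 0.93 (AE), 0.64 (TE), 1.51 (SE) and 0.88 (HTyr). DBF4, its activating subunit, measured 22.6, 20.4 and 25.2 TPM in untreated, 28.6, 30.7 and 32.02 in AE, 27.5, 25.4 and 24.6 in TE, 38.8, 41.95 and 37.1 in SE and 31.4, 24.9 and 27.4 in HTyr libraries. TE and HTyr libraries reached down into the untreated range, and only SE was called (0.78). MCM8, which acts with MCM9 in recombination rather than in the ring, measured 5.68, 5.65 and 6.16 TPM in untreated, 8.07, 6.41 and 9.60 in AE, 7.71, 8.99 and 7.67 in TE, 12.8, 12.8 and 12.9 in SE and 8.41, 6.90 and 7.71 in HTyr libraries. All treated libraries were above the untreated ones, and only the SE comparison passed the fold threshold (1.08). In the mean of the 4 treatments MCM8 stood at 0.57, and it passed with a pseudocount of 0.1 (0.60), without HTyr replicate 2 (0.59), AE replicate 2 (0.61) or untreated replicate 3 (0.61), without mitochondrially encoded genes (0.61) and with the GC and length trend removed (0.64).

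**Figure D3:**
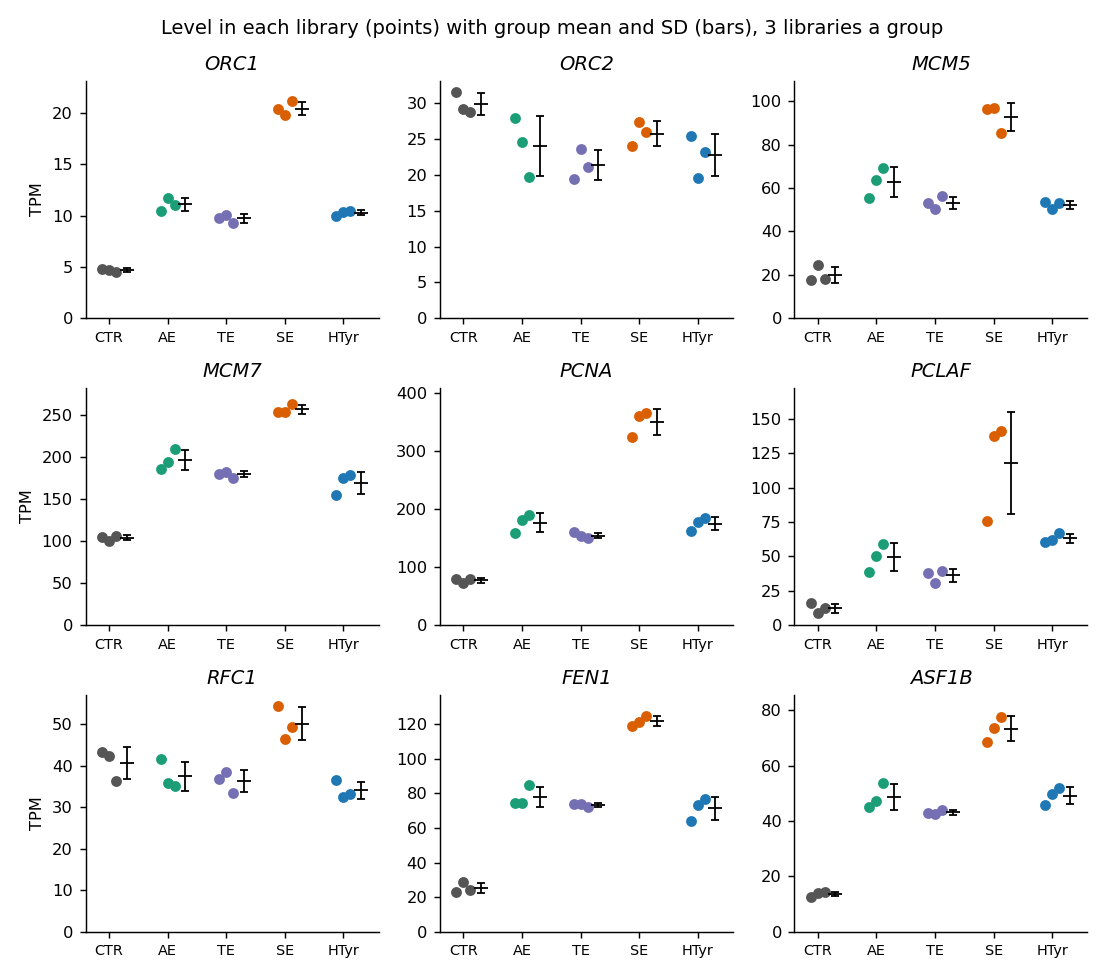
TPM in each of the 15 libraries for 9 genes, with the group mean and SD of 3 libraries beside the points and axes from 0. ORC1, MCM5, MCM7, PCNA, PCLAF, FEN1 and ASF1B have the untreated libraries lowest and SE highest, ORC2 has the untreated libraries highest, and RFC1 has SE highest with the other groups overlapping.

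All 9 genes of primase and the replicative polymerases were called in the mean of the 4 treatments, with a median of 1.00. The largest change there was in POLA2, the second subunit of polymerase alpha, which measured 2.20, 4.96 and 6.27 TPM in untreated, 9.95, 9.16 and 9.56 in AE, 7.34, 8.02 and 8.04 in TE, 18.99, 15.6 and 15.2 in SE and 11.5, 9.57 and 9.42 in HTyr libraries. Untreated libraries spread widely and still lay below every treated one, and the log2 fold change was 1.26 ± 0.19 (standard error from limma, adjusted p = 9.11e-05). An unnamed gene on the same strand (ENSG00000285816) overlaps POLA2 and ran from 1.43 to 3.51 TPM, so reads of both may be shared. POLD1, the catalytic subunit of polymerase delta, changed least and measured 14.6, 12.1 and 12.4 TPM in untreated, 21.4, 18.5 and 26.2 in AE, 17.8, 20.7 and 17.4 in TE, 22.9, 25.6 and 26.1 in SE and 13.6, 19.04 and 17.3 in HTyr libraries. Its lowest HTyr library lay within the untreated range, and its log2 fold change of 0.62 ± 0.11 (standard error from limma, adjusted p = 0.00036) was just over the threshold. It fell short of it after median-ratio scaling (0.56), quantile normalization (0.58) or removal of a trend with GC content and length (0.56), and without untreated replicate 2 (0.57), untreated replicate 3 (0.58) or AE replicate 3 (0.58).

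Primase itself, PRIM1 and PRIM2, which lays down the RNA primers, rose by 1.23 and 1.00. PRIM1 overlaps NACA on the same strand, a gene at 1418 to 1876 TPM, so its reads are uncertain. POLA1, the catalytic subunit of polymerase alpha, rose by 1.00. In the leading-strand enzyme, POLE was called with AE (0.77) and SE (1.09), and POLE2 with every treatment. The delta subunit POLD3 was called with every treatment, and POLD2 with AE (0.65) and SE (0.83). POLD3 overlaps LIPT2-AS1 on the same strand, at 2.21 to 4.71 TPM.

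PCNA (ENSG00000132646, chr20:5114953-5126626), the ring that tethers polymerases to DNA and whose promoter is printed above, measured 78.7, 71.8 and 80.3 TPM in untreated, 159, 182 and 190.2 in AE, 159.8, 154 and 150.1 in TE, 325, 361 and 367 in SE and 163, 178 and 186 in HTyr libraries. Untreated libraries, SE libraries and the rest formed 3 ranges without overlap, and PCNA rose by 1.39 ± 0.06 (standard error from limma, adjusted p = 1.35e-09) over the 4 treatments on average. PCLAF (ENSG00000166803, chr15:64364304-64387687), a small protein that binds PCNA, had the largest change of all 56 and measured 15.7, 8.93 and 12.1 TPM in untreated, 38.98, 49.9 and 59.3 in AE, 37.96, 30.7 and 39.6 in TE, 75.5, 138 and 142 in SE and 60.5, 61.9 and 67.01 in HTyr libraries. Replicate 1 of SE was far below the other 2 and yet above all other treated libraries. Its log2 fold change was 2.27 ± 0.19 (standard error from limma, adjusted p = 3.35e-07) over the 4 treatments on average and 3.20 with SE. An unnamed gene on the same strand (ENSG00000259316) overlaps PCLAF and ran from 6.91 to 86.0 TPM, so reads of both may be shared.

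Of 8 genes of the clamp and its loaders 7 were called in the mean of the 4 treatments, and RFC1 was not. RFC1 (ENSG00000035928, chr4:39287456-39366375), the large subunit that is specific to this loader, measured 43.2, 42.3 and 36.3 TPM in untreated, 41.5, 35.9 and 35.1 in AE, 36.8, 38.6 and 33.4 in TE, 54.4, 46.5 and 49.2 in SE and 36.4, 32.4 and 33.3 in HTyr libraries. Untreated, AE, TE and HTyr libraries overlapped, and the log2 fold change in the mean of the 4 treatments was -0.06 (95% interval -0.21 to 0.10, adjusted p = 0.553). RFC2 to RFC5, the small subunits that also serve in other loaders, were called in that mean at 0.90, 1.11, 0.64 and 1.08. By treatment, RFC4 was not called with TE (0.48) or HTyr (0.24), nor RFC2 with HTyr (0.58). As a share of the summed RFC1 to RFC5 TPM, RFC1 went from 28.1 ± 2.43% (SD, n = 3) in untreated cells to 15.5 ± 1.63% with SE, and all 12 treated libraries were below the untreated ones. RFC4 overlaps EIF4A2 on the opposite strand (379 to 611 TPM). DSCC1, of the alternative loader that acts with cohesion, rose by 1.18.

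Replication protein A, which coats single-stranded DNA, had 1 of 3 subunits called in that mean. RPA3, the smallest subunit, measured 23.8, 22.4 and 24.3 TPM in untreated, 39.97, 50.3 and 50.9 in AE, 36.95, 35.4 and 39.95 in TE, 64.1, 90.6 and 90.1 in SE and 44.1, 47.6 and 47.95 in HTyr libraries, with replicate 1 of SE the lowest of its group. It rose by 1.09 ± 0.10 (standard error from limma, adjusted p = 6.92e-07). RPA1 and RPA2 carried values of 69.7, 69.1 and 64.9 TPM in untreated, 79.8, 76.3 and 92.1 in AE, 85.4, 72.5 and 91.99 in TE, 119, 107 and 110.3 in SE and 82.5, 82.8 and 87.1 in HTyr libraries for RPA1, and of 42.5, 42.1 and 43.4 TPM in untreated, 60.6, 55.5 and 63.1 in AE, 60.1, 55.8 and 64.3 in TE, 72.7, 82.5 and 82.3 in SE and 51.6, 50.1 and 60.1 in HTyr libraries for RPA2. All 12 treated libraries exceeded the 3 untreated ones for both, with called changes only for SE (0.72 and 0.88).

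Genes that finish the lagging strand or untangle replicated DNA were called in the mean of the 4 treatments without exception. FEN1, the flap nuclease, measured 22.98, 28.7 and 24.3 TPM in untreated, 74.4, 74.3 and 84.7 in AE, 73.8, 74.03 and 72.1 in TE, 119, 121 and 125 in SE and 64.1, 73.3 and 76.7 in HTyr libraries. It rose by 1.71 ± 0.07 (standard error from limma, adjusted p = 7.59e-10), with untreated, SE and other treated libraries apart, and part of it overlaps FADS2 on the same strand, at 6.05 to 13.3 TPM. LIG1, the ligase that joins fragments, rose by 1.36, and RNASEH2A, the catalytic subunit that removes ribonucleotides, by 0.97. TOP2A, the topoisomerase that untangles replicated DNA, measured 27.4, 29.3 and 31.4 TPM in untreated, 55.97, 55.8 and 60.9 in AE, 40.5, 41.7 and 40.4 in TE, 86.5, 88.2 and 91.01 in SE and 55.4, 46.01 and 55.8 in HTyr libraries. TE libraries were above the untreated ones but short of the threshold (0.47), and the other 3 treatments were called.

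Of the fork protection genes, CLSPN, the mediator between stalled forks and the checkpoint kinase, was the most changed at 2.18, 4.03 and 3.39 TPM in untreated, 10.4, 7.99 and 11.03 in AE, 8.48, 11.8 and 9.99 in TE, 17.1, 17.8 and 15.5 in SE and 7.32, 7.37 and 8.40 in HTyr libraries. It rose by 1.62 ± 0.14 (standard error from limma, adjusted p = 5.42e-07), with every treated library above the untreated ones. TIMELESS and WDHD1, which travel with the helicase, rose by 0.78 and 0.95. TIPIN, the partner of TIMELESS, measured 23.9, 28.3 and 28.8 TPM in untreated, 30.8, 26.1 and 34.5 in AE, 29.1, 26.98 and 26.3 in TE, 40.6, 42.96 and 43.2 in SE and 24.4, 23.9 and 28.2 in HTyr libraries. Only the SE libraries left the untreated range as a group, with a called 0.64.

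Chaperones that place histones on new DNA rose with every treatment. ASF1B, the histone H3-H4 chaperone of cycling cells, measured 12.7, 14.01 and 14.3 TPM in untreated, 44.95, 47.3 and 53.7 in AE, 43.1, 42.4 and 43.9 in TE, 68.5, 73.7 and 77.5 in SE and 45.9, 49.8 and 51.8 in HTyr libraries. Its log2 fold change was 1.90 ± 0.06 (standard error from limma, adjusted p = 9.62e-11), and the libraries fell into 3 ranges. ASF1A, its paralogue with broader expression, measured 9.09, 7.86 and 8.74 TPM in untreated, 18.6, 18.5 and 20.2 in AE, 16.6, 14.8 and 15.4 in TE, 21.1, 23.1 and 24.1 in SE and 13.3, 15.6 and 16.3 in HTyr libraries and rose by 1.02. The share of ASF1B in the TPM of both went from 61.4 ± 2.98% (SD, n = 3) to 76.3 ± 0.172% with SE and 76.6 ± 0.858% with HTyr. CHAF1A and CHAF1B, of chromatin assembly factor 1, rose by 1.25 and 1.26. CHAF1B overlaps MORC3 on the same strand, at 11.6 to 18.5 TPM, so its reads are uncertain.

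SE was compared directly with the other treatments, all at the same dose and time. It had the highest group mean for 55 of the 56 genes, and untreated cells for ORC2. All 3 SE libraries lay above the 9 other treated ones for 51 members, as for 13.8% of all genes tested. Called differences numbered 42 against HTyr, 23 against AE and 39 against TE, none in the other direction by limma, also at an unadjusted p under 0.05. In these comparisons 4.97%, 1.94% and 4.7% of all genes were called higher with SE. Median log2 differences of the 56 were 0.73, 0.56 and 0.71, beside 0.13, 0.01 and 0.06 over all genes. Median-ratio scaling took the all-genes median against HTyr from 0.13 to 0.01. The count against HTyr depended on the scaling, with 30 after median-ratio scaling, 25 after quantile normalization and 24 once a trend with GC content and transcript length was removed. Over all genes the same scalings turned the calls from 741 higher and 355 lower to 323 and 561, 350 and 511, and 261 and 474, whereas no member was called lower with SE under any of them. Against TE, 56.2% of all called genes were higher, and 43.3% after median-ratio scaling.

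The 3 largest called differences from HTyr were those of MCM4 at 1.17 (95% interval 0.87 to 1.47, adjusted p = 5.37e-05), CLSPN at 1.08 (95% interval 0.70 to 1.46, adjusted p = 0.00056) and GINS2 at 1.01 (95% interval 0.84 to 1.17, adjusted p = 1.05e-06), in log2 units. From AE they were PCLAF at 1.22 (95% interval 0.71 to 1.73, adjusted p = 0.00297), MCM4 at 1.05 (95% interval 0.75 to 1.35, adjusted p = 0.000164) and PCNA at 0.99 (95% interval 0.82 to 1.15, adjusted p = 1.36e-06). From TE they were PCLAF at 1.65 (95% interval 1.14 to 2.16, adjusted p = 0.000176), PCNA at 1.18 (95% interval 1.01 to 1.34, adjusted p = 2.23e-07) and TOP2A at 1.11 (95% interval 0.94 to 1.27, adjusted p = 3.31e-07). ORC2 was at 0.18 (95% interval -0.08 to 0.45, adjusted p = 0.299) against HTyr, 0.11 (95% interval -0.16 to 0.38, adjusted p = 0.609) against AE and 0.27 (95% interval 0.00 to 0.53, adjusted p = 0.132) against TE.

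**Figure D4:**
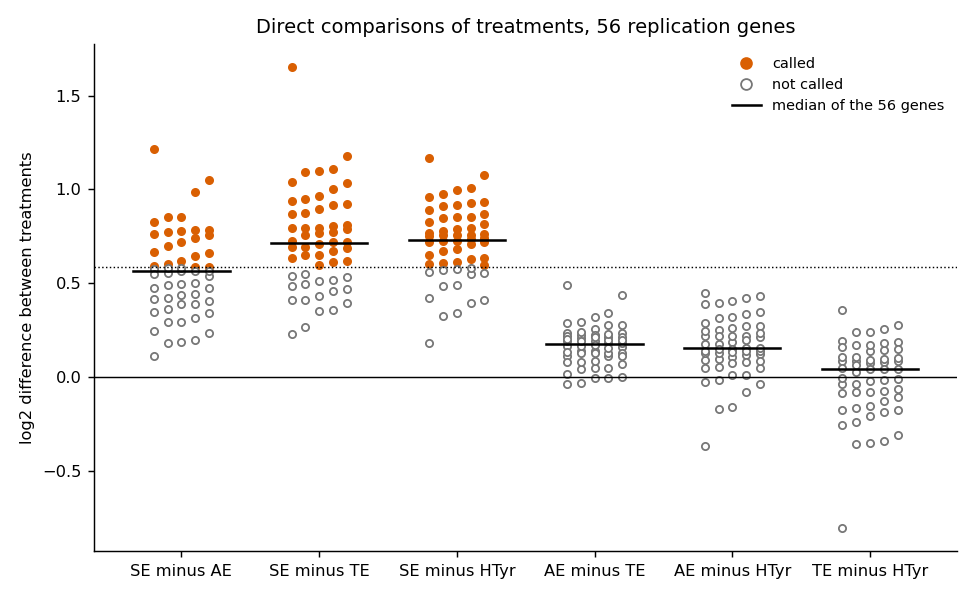
Each point is the log2 difference of 1 of the 56 genes between a pair of treatments, filled where called, with the median as a bar and the fold threshold of 0.585 as a dotted line. The 3 comparisons with SE lie above 0 for all 56 genes, and the 3 without SE hold no called gene.

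Differences among AE, TE and HTyr were smaller. AE had the highest mean of these 3 for 46 members, HTyr for 7 and TE for 3. No member was called by limma between any pair of them. At an unadjusted p under 0.05 there were 24 members for AE against HTyr, 10 for TE against HTyr and 18 for AE against TE, and at an adjusted p under 0.05 with no fold threshold 10, 3 and 1. Shares of all genes at these cutoffs are not given, and those that follow are for called genes. Over all genes 0.899%, 0.443% and 0.0537% were called higher in these comparisons, and of all genes called either way 67.0%, 62.9% and 61.5% were higher, which median-ratio scaling turned to 29.1%, 35.6% and 41.7% as the median of all genes for AE against HTyr went from 0.12 to 0. The 95% intervals of the 56 log2 differences reached at most 0.70 and at least -0.88 for AE against HTyr, 0.74 and -1.32 for TE against HTyr, and 0.95 and -0.42 for AE against TE. The lowest bounds against HTyr were those of PCLAF, which stood at -0.37 ± 0.24 (standard error from limma, adjusted p = 0.35) for AE and -0.81 ± 0.24 (standard error from limma, adjusted p = 0.0807) for TE against HTyr. RFC4 differed by 0.45 (95% interval 0.33 to 0.57, adjusted p = 0.00103) between AE and HTyr, and TOP2A by 0.49 (95% interval 0.33 to 0.65, adjusted p = 0.0149) between AE and TE.

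Of 27 other replication factors outside the 56, 14 were called higher in the mean of the 4 treatments, where 10.4% of all genes were, and none lower, with 2 lower at an unadjusted p under 0.05 by limma and a median log2 fold change of 0.59. With SE, 20 were called higher and 1 lower, where 17.0% and 11.0% of all genes were. The largest were TICRR, the firing factor treslin, at 1.52 and DTL, the adaptor that marks CDT1 for destruction, at 1.38. TICRR was at 2.24 to 2.81 TPM in untreated and 5.97 to 12.5 TPM in treated libraries, DTL at 5.75 to 9.87 TPM in untreated and 14.7 to 29.2 TPM in treated libraries, without overlap. POLD4, the smallest subunit of polymerase delta, measured 27.9, 27.4 and 36.01 TPM in untreated, 18.7, 25.7 and 22.7 in AE, 24.4, 19.7 and 23.1 in TE, 12.4, 14.7 and 18.2 in SE and 25.4, 25.1 and 29.2 in HTyr libraries. Its SE libraries were below all others, with a called -0.99 ± 0.15 (standard error from limma, adjusted p = 8.46e-05), and the AE and TE libraries lay below the untreated ones with no call (-0.44 and -0.43), while HTyr overlapped them (-0.18). As a share of the summed POLD1 to POLD4 TPM, POLD4 went from 22.7 ± 3.03% (SD, n = 3) to 7.28 ± 1.49% with SE. TOP1, the topoisomerase ahead of the fork, was at 162 to 170.0 TPM in untreated and 118 to 146 TPM in treated libraries, a log2 difference of -0.30 ± 0.03 (standard error from limma, adjusted p = 7.53e-06) that missed the fold threshold.

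Of 9 other chromatin factors of the fork 4 were called higher in the mean of the 4 treatments, and 8 with SE (10.4% and 17.0% of all genes), led in that mean by HAT1, the acetylase of new histone H4 (1.08), and UHRF1, which hands methylation to new DNA (0.97). HAT1 was at 28.3 to 31.5 TPM in untreated and 43.97 to 94.97 TPM in treated libraries and UHRF1 at 16.6 to 17.6 TPM in untreated and 24.1 to 51.9 TPM in treated libraries. SUPT16H of the FACT complex stood at 0.32 in that mean, with no call there and a call with SE (0.63), and NAP1L1 at -0.03, with no call in the mean or with any treatment. Histone deposition that does not depend on replication gave 0 of 5 calls (limma, mean of the 4 treatments) and a median of 0.05. At an unadjusted p under 0.05 there were 3 of 5. Log2 fold changes ran from 0.46 for DAXX and 0.38 for HIRA to 0.01 for CABIN1 and -0.18 for UBN1. With SE 1 of 5 was called, DAXX, at 0.68, and the list's median was 0.42. For a list of 5 genes these counts are near the shares of all genes called higher, 10.4% in that mean and 17.0% with SE.

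Genes listed for mitochondrial DNA replication gave 3 of 15 calls in the mean of the 4 treatments and 8 with SE. Of all genes 10.4% and 17.0% were called higher there, and the list's median in that mean was 0.54. None of the 15 was called lower by limma, with 3 lower at an unadjusted p under 0.05. MGME1, a mitochondrial nuclease, rose by 0.90, at 17.2 to 18.7 TPM in untreated and 29.4 to 42.1 TPM in treated libraries. EXOG, another nuclease there, had a log2 change of 0.87 (95% interval 0.09 to 1.65, adjusted p = 0.0602) and reached 18.6 TPM in 1 TE library. POLRMT and TOP1MT, the mitochondrial RNA polymerase and topoisomerase, were at -0.22 and -0.30. Of 11 repair and translesion polymerases, 10 passed the filter on low values and 1 was called higher in the mean of the 4 treatments, a share near that of all genes (10.4%). It was POLQ, the polymerase of end joining (1.13, 2.08 to 3.05 TPM in untreated and 4.14 to 9.19 TPM in treated libraries). The median of that list was -0.03, with POLM at 0.32, REV3L at -0.17 and POLH at -0.16, and REV3L was called lower with HTyr (-0.61).

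**Figure D5:**
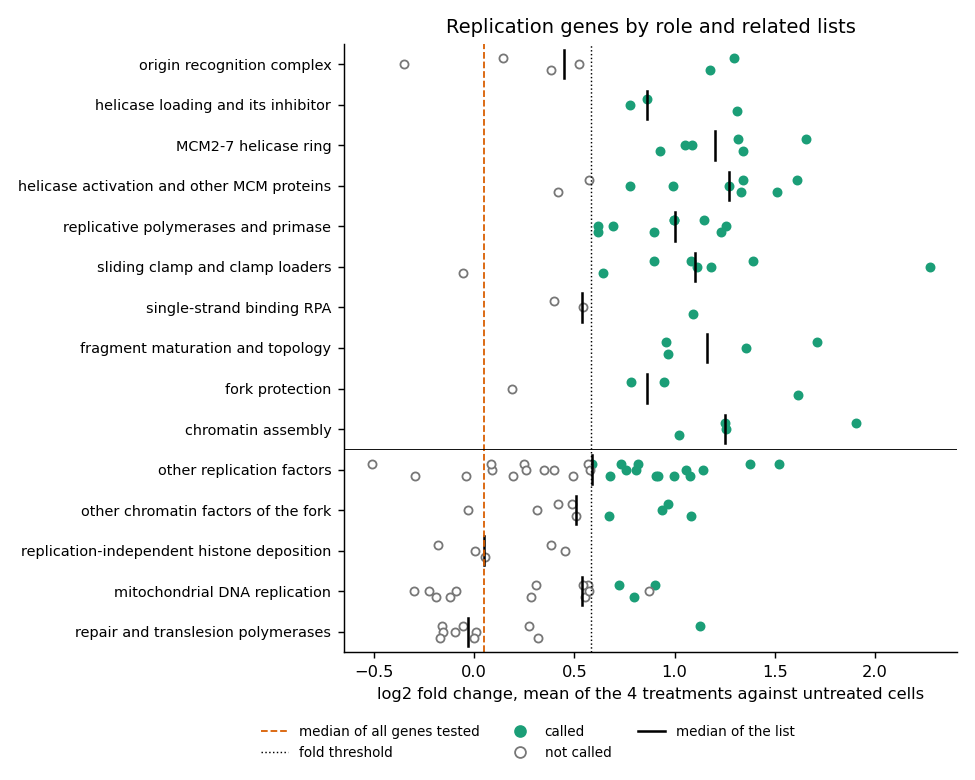
Log2 fold changes in the mean of the 4 treatments for the 56 genes by role (above the line) and for 5 related lists (below it), filled where called, with each list's median as a bar. The median of all genes tested, 0.05, is dashed, and the list medians run from 0.45 for the origin recognition complex to 1.27 for helicase activation above the line and from -0.03 to 0.59 below it.

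Markers of other cell types were near 0. Of 6 leukocyte markers 5 stayed at or under 0.41 TPM, with a sum of 0 to 0.5 TPM, and CD68, a lysosomal gene that epithelial lines also express, was at 16.4 to 17.3 TPM in untreated and 1.58 to 6.82 TPM in treated libraries. Of 6 fibroblast markers 5 were at or under 0.77 TPM, COL1A2 at 0 throughout, and COL1A1 at 4.06 to 8.53 TPM. The 4 endothelial markers summed to 0.07 to 0.62 TPM. The 7 epithelial markers summed to 4694 ± 47.7 TPM in untreated cells and 2629 ± 87.8 TPM with SE, with KRT18, KRT19 and CLDN4 called lower in the mean of the 4 treatments (7.43% of all genes) and 5 of 7 with SE (11.0% of all genes), and none called higher by limma, nor higher at an unadjusted p under 0.05. Their part in the rise of the replication genes was not tested. Of the 56 genes, 24 overlap another annotated gene above 1 TPM in some library, and 10 have a named pseudogene, none of which exceeded 0.53 TPM.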

How the data were processed

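HCT116 cells were profiled by RNA sequencing of poly(A) RNA with a stranded kit, in 5 groups of 3 libraries taken from the sample titles and descriptions. The authors deposited TPM per gene for 60664 genes in 1 table. The submitters' processing notes name STAR, RSEM and GRCh38, and give neither their versions nor a strand setting. TPM hold no depth, so no counting interval is given.

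From the TPM, log2(TPM + 0.5) was tested with limma 3.58.1 (R 4.3.3), with a mean-variance trend, in 1 fit over the 5 groups with 10 residual degrees of freedom. The test took genes that reached 1 TPM in 3 or more of the 15 libraries, 14899 in all and all 56 replication genes among them, with Benjamini-Hochberg adjustment over the genes tested. The pseudocount makes the fold changes of low genes too small. The median-ratio scaling, quantile normalization, other pseudocounts and filters, array weights, a replicate block, fits on only the groups compared and fits without 1 library or without mitochondrially encoded genes were alternatives, and removal of a trend with GC content and transcript length was added after the data were seen. The scripts were tested on simulated data. Positions are those of GENCODE 44 on GRCh38.

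The members, lists and tests were chosen with earlier results of these data known. Named with values in every library were the largest and smallest changes in each role and every member without a call in the mean of the 4 treatments, with up to 3 called members per pair of treatments, and the 2 largest and 2 smallest changes in each other list. Counting a promoter word over any window of a gene was decided after values were seen. A permutation test planned for the summed TPM is not given, since its genes were chosen with results known. Python 3.11.15 with numpy 2.4.6, pandas 2.3.3, scipy 1.17.1 and matplotlib 3.10.9 did the rest. Libraries of the same replicate number correlated in their deviations from the group means at -0.209 to 0.263, and those of different numbers at -0.225 to 0.28, so the numbers were not used to pair libraries.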

Additional observations from a re-analysis of the deposited data

How the results depend on the processing

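The counts of members called higher depended mainly on the fold threshold. With a threshold of 2-fold, 26 were called with AE, 17 with TE, 18 with HTyr and 29 in the mean of the 4 treatments, and 3, 2 and 8 for SE over HTyr, AE and TE, while SE against untreated cells kept 44. With no fold threshold, 48 were called for SE over AE, 10 for AE over HTyr, 1 for TE over HTyr and 1 for AE over TE. The shares of all genes given in the Results hold only for the fold threshold used there. None is given for these other thresholds, so whether the members changed in step with all genes was not tested. SE over HTyr gave 25 after quantile normalization and 24 once the GC and length trend was removed, an alternative chosen after the data were seen; the cause was not tested. Without 1 library the counts ran from 46 to 47 for AE, 39 to 41 for TE, 52 to 53 for SE, 37 to 40 for HTyr, 45 to 47 for the mean, 37 to 45, 20 to 27 and 37 to 41 for SE over HTyr, AE and TE, and 0 for the other 3 pairs. For TE against HTyr 1 member was called lower with TE in a fit on only those groups, with array weights and without SE replicate 1. With the replicate block, whose numbers do not pair the libraries, they were 47, 40, 53, 38 and 46 against untreated cells and 41, 22 and 39 for SE over HTyr, AE and TE. The summed TPM of the 56 members was 1287 higher in treated cells and 1188 to 1331 higher without 1 library. Without mitochondrially encoded genes it was 1611 higher. There the remaining TPM were rescaled to the full library total, which raises every sum, so 1611 is not on the scale of 1287. Of 1248 alternative values of 48 named genes, 13 gained a call, 6 lost it and 7 changed sign. The other fold thresholds are not among these alternatives, and at 2-fold the calls in the mean of the 4 treatments fell to 29 of the 56 members. NAP1L1 went from -0.03 to 0.13 with the GC and length trend removed. CABIN1, at 0.01, went to -0.047 with median-ratio scaling, -0.028 with quantile normalization and -0.087 to 0.077 without 1 library. A fit on only the groups compared gives no value for the mean of the 4 treatments.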
